A study of Homo sapiens with 12 samples.

Results

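RNA carried through a Halo-tag purification of a TNIP2 fragment was compared with total RNA of the same cell extracts. Members of the comparison were the 3 TNIP2 Pulldown and 3 TNIP2 Input libraries, chosen by their sample labels, which are 6 of the 12 libraries of the series. A gene was tested if it reached a normalized count of 10 in at least 3 of these 6 libraries, which left 14152 of 25369 genes. Where 3 values of a group are listed, they follow the order of extracts 1, 2 and 3. A number alone in parentheses after a gene's values is its log2 fold change of Pulldown over Input. In both groups HEK293T cells, a transformed line from human embryonic kidney, had been transfected with a plasmid for Halo-TNIP2 196-346, the tag joined to residues 196 to 346 of the protein. Input is RNA from 100 µl of whole cell extract, and Pulldown is RNA from 90 µl of material purified through the tag from the rest of that extract, both after removal of ribosomal RNA. The other 6 libraries, from cells with the Halo tag alone (Control Input and Control Pulldown, 3 each), gave the background of tag and resin. The fragment is a truncated protein made from a plasmid, so it lacks the rest of the molecule, and the cells still carry their own TNIP2 gene. The labels name no separate transfections or cultures. A p-value here therefore reflects only how these libraries vary, and that variation may be technical.

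TNIP2, also called ABIN-2, is an adaptor protein that binds ubiquitin chains and restrains NF-kB signalling downstream of receptors of the tumour necrosis factor and Toll-like families. It is known to associate with the kinase TPL-2, encoded by MAP3K8, and with p105, the precursor encoded by NFKB1, and it works beside A20, encoded by TNFAIP3. A pulldown followed by sequencing counts the RNA that stays with a tagged protein and its partners, whether the contact is direct or through other molecules. A gene that is higher in Pulldown than in Input makes up a larger share of the purified RNA than of the extract. The amounts of RNA recovered are not in the values, so a gene counted as lower here may still have been present in the purified material.

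The libraries held 8898501 to 16759405 recovered reads for the fragment's Input and 10313254 to 29529295 for its Pulldown. Depth was 13793532 to 20791585 in Control Input and 3591136 to 6404744 in Control Pulldown, so low genes are measured least well in Control Pulldown. Reads counted for the TNIP2 gene gave normalized counts of 16750, 13318 and 46568 in Input and 51905, 69806 and 193013 in Pulldown. All Pulldown values lay above all Input values. Each Pulldown library over its own Input gave 3.1, 5.24 and 4.14. The main fit, which did not pair libraries of an extract, called TNIP2 higher (log2 fold change 2.02, SE 0.55, adjusted p = 0.011, limma with Benjamini-Hochberg adjustment). This call ended with quantile-normalized values, where the change was 1.09 (adjusted p = 0.17). It also ended (adjusted p = 0.065) when each library was centred on its ribosomal protein genes, called ribosomal centring here. In the cells with the tag alone TNIP2 had 278, 304 and 272 in Input and 1472, 309 and 391 in Pulldown. The change with the fragment exceeded that with the tag by 1.04 (SE 0.81, adjusted p = 0.31), which was not called. TNIP2 reads can come from the plasmid as well as from the cells' own gene, and the counts do not separate these sources. In Input they made up 0.241% of reads with the fragment and 0.00267% with the tag alone. VIM, KRT8, KRT18, NEFL, NEFM and LIN28B, which this line expresses, were measured in all 6 libraries, with VIM at 3858 to 7416. PAX2, also expected in this line, was low, with 2, 5 and 2 in Input and 19, 22 and 10 in Pulldown. Of 12 markers of blood, endothelium, liver, fibroblasts and muscle, 8 stayed at 5 or below in all 6 libraries: PTPRC, HBB, CD34, PECAM1, VWF, COL1A2, DCN and MYH7. The other 4 were the fibroblast collagen COL1A1, at 42 to 62 in Input and 78 to 86 in Pulldown, and ALB, DES and APOA1, which reached 33, 13 and 9. The part of such RNA in the results was not tested.

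The purified RNA differed from the extract across much of the transcriptome. Of the 14152 genes tested, 3763 were higher (26.6%) and 3387 lower (23.9%) in Pulldown at an adjusted p under 0.05, and 8075 passed 0.05 before adjustment. The change was at least 2-fold for 2743 of the higher and 2342 of the lower genes, and at least 4-fold for 592 and 393. The middle 90% of genes lay between log2 fold changes of -1.72 and 1.91, against -0.43 and 0.33 for Control Pulldown against Control Input. With the tag alone limma called 0 genes higher and 19 lower (0.134%). Before adjustment 317 genes passed 0.05 there, and voom on recovered reads called 1 gene higher. Of those 19 genes, 17 were also lower with the TNIP2 fragment. The difference of enrichments, which subtracts the change seen with the tag alone, was higher for 3322 genes (23.5%) and lower for 2945 (20.8%). Among called genes with a name below, it was not called for TNIP2, SOX13, HOXD4, HOXD13, UBE2S, SRP72, ALDOA, RNVU1-19, SCARNA10, SNORD97 and SNHG9. It called 3192 of the 3763 higher genes and 2810 of the 3387 lower genes in the same direction. These counts depended on how libraries were scaled. With ribosomal centring the median of all genes moved by -0.53, and 1858 genes were higher and 5264 lower, so that 26.1% rather than 52.6% of calls were higher. Medians of lists described below moved with it, to 0.93 for large chromatin regulators, 0.62 for helix-loop-helix and HES genes, 0.61 for HOX genes, 0.53 for SOX, FOX, GATA and KLF genes and 0.48 for immediate early genes. There were 2051 higher and 1747 lower without both libraries of extract 1, 2285 and 1878 without those of extract 2, and 4889 and 4414 without those of extract 3.

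**Figure D1:**
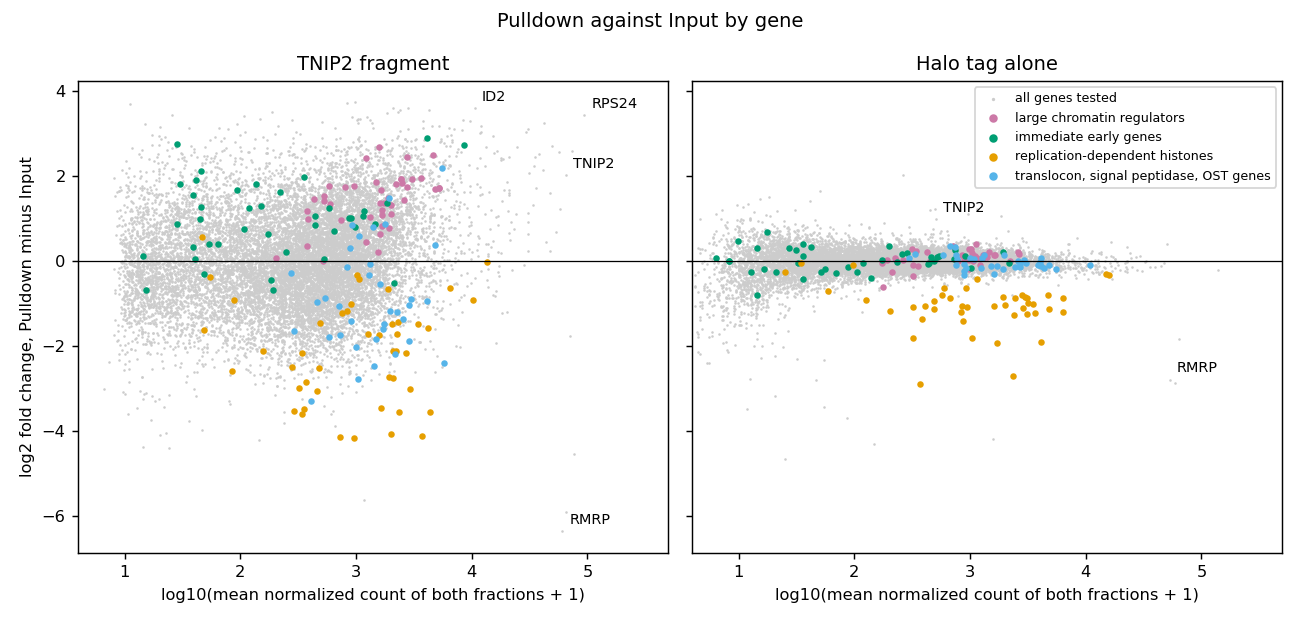
Each point is 1 of the 14152 genes tested; the horizontal axis is log10 of the mean normalized count of both fractions plus 1, and the vertical axis is the log2 fold change of Pulldown over Input, for the TNIP2 fragment (left) and the Halo tag alone (right), with 4 gene lists in colour. The middle 90% of genes span -1.72 to 1.91 with the fragment and -0.43 to 0.33 with the tag alone, where histone genes form the coloured group below 0.

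The 3 extracts gave similar profiles. Over the 14152 genes, the log2 ratio of Pulldown to Input in extract 1 had a Pearson correlation with that in extract 2 of 0.943, and extract 3 had 0.830 with extract 1 and 0.835 with extract 2. These are correlations across genes, which are not independent replicates, and both ratios of a pair share the authors' scaling of the libraries. With the tag alone the same correlations were 0.20, 0.081 and 0.136. Of the 3763 higher genes 3759 were above their own Input in 3 of 3 extracts, and of the 3387 lower genes 3367 were below it. Libraries of both groups did not overlap for 3651 of the higher and 3279 of the lower genes. Over all genes tested, called or not, the libraries did not overlap for 58.4%, with Pulldown above for 30.3% and below for 28.1%. Extract 3 differed more than 4-fold from the mean of extracts 1 and 2 for 106 genes, of which 75 were not called. HSPA6, an inducible heat shock gene, is named here because of its known counts and not by the naming rule. It had 6, 3 and 97 in Input and 43, 39 and 608 in Pulldown, and was not called (limma adjusted p = 0.074). Extract 3 was highest in both fractions of HSPA6. Its ratio of Pulldown to Input in extract 3 was within 4-fold of the others, so HSPA6 is not among the 106 genes.

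The called genes with the highest normalized counts in Pulldown among those at least 4-fold higher were TNIP2 and 9 genes of cytosolic ribosomal proteins. The TNIP2 counts can include reads of the plasmid. RPS24, a protein of the small subunit, had normalized counts of 15290, 14656 and 14130 in Input and 197752, 237089 and 83149 in Pulldown (log2 fold change 3.42, SE 0.37, adjusted p = 8.3e-05). All 3 Pulldown libraries lay above all Input libraries, with extract 3 the lowest of the 3, while the tag alone gave 19167, 18148 and 16983 in Control Input and 14712, 15431 and 16176 in Control Pulldown. RPS25 rose from 7658 ± 496 to 75805 ± 26563 (SD, n = 3; log2 fold change 3.24, SE 0.30, adjusted p = 4.6e-05). Among large subunit genes RPL19 had a log2 fold change of 2.55, RPL31 of 2.51, RPL35A of 2.44, RPL23 of 2.43, RPL10A of 2.23 and RPL12 of 2.14.

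Other ribosomal protein genes went the opposite way in the same libraries. RPL30 had normalized counts of 9559, 8517 and 10150 in Input and 1653, 1667 and 1684 in Pulldown (log2 fold change -2.49, SE 0.19, adjusted p = 3.2e-05), and its Pulldown values were nearly equal. RPL29 had 15447, 13740 and 9384 in Input and 3302, 3306 and 2660 in Pulldown (-2.03) and RPS12 12394, 10768 and 11953 in Input and 2828, 3566 and 2486 in Pulldown (-2.0). In each of these genes the groups did not overlap. RPS9 fell from 5612 ± 728 to 1508 ± 241 (-1.90) and RPL39L, a copy of RPL39, from 278 ± 49.2 to 42 ± 3.61 (-2.69). With the tag alone RPL30, RPS12 and RPS9 had log2 fold changes of -0.22, 0.03 and 0.16. Of 49 large subunit genes tested (of 52 in the tables) 23 rose and 7 fell, and of 31 small subunit genes (of 32) 13 rose and 7 fell, against 26.6% and 23.9% of all genes tested. The SD of the log2 fold change over members was 1.25 and 1.51 with the TNIP2 fragment and 0.23 and 0.23 with the tag alone. The medians of 0.63 and 0.18 became -0.14 and -0.68 with quantile-normalized values, so the lists as wholes have no settled direction. Many ribosomal protein genes have near-identical pseudogenes, and how reads with several matches were counted is not given in the sources used here, so single values are uncertain to that extent.

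**Figure D2:**
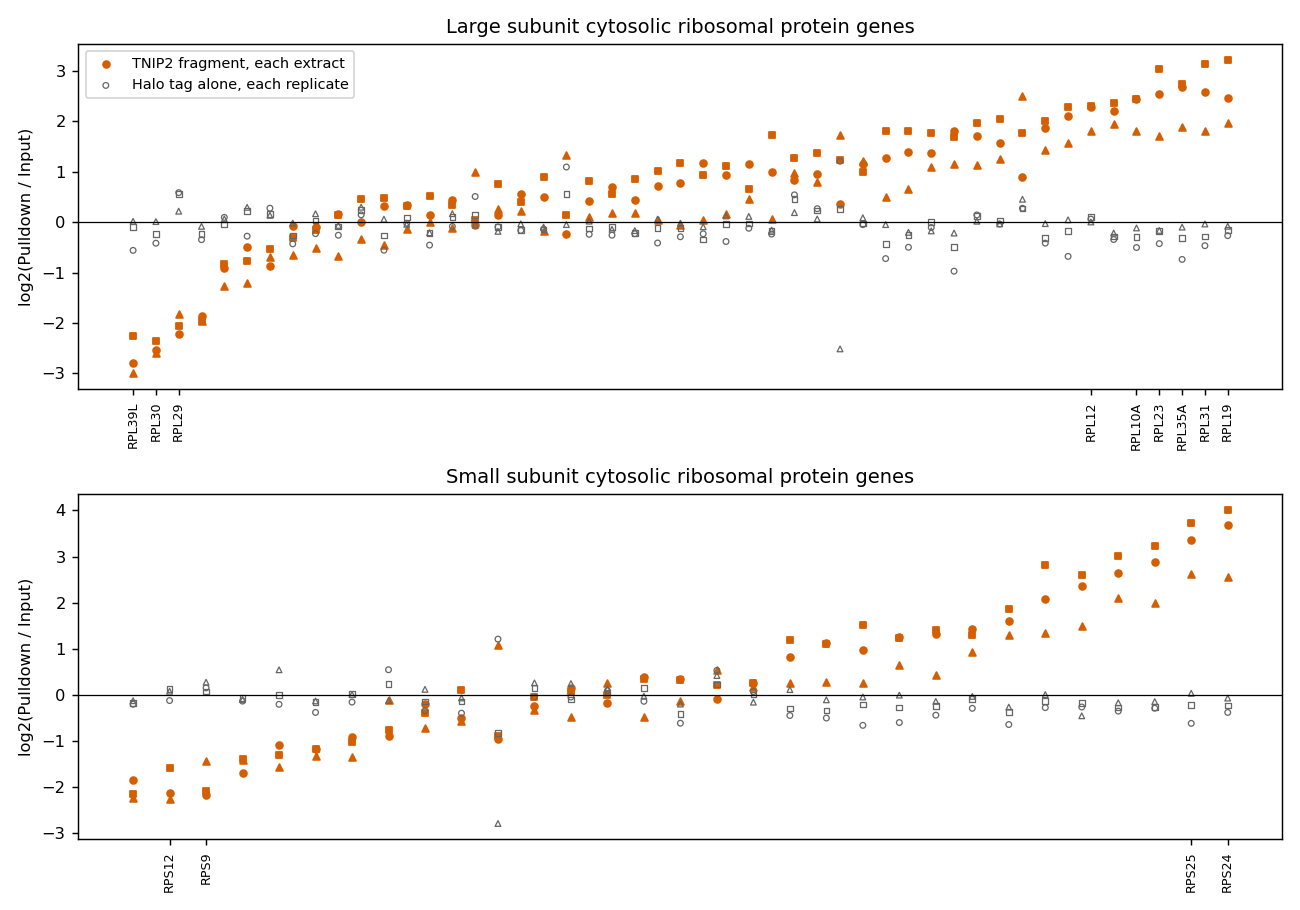
Each column is 1 ribosomal protein gene, ordered by log2 fold change within the large (top) and small (bottom) subunit, with the genes of the text labelled; filled points are log2 ratios of Pulldown to Input in the 3 extracts with the TNIP2 fragment and open points those of the 3 replicates with the tag alone. RPS24 and RPL19 stand at the upper ends and RPL39L at the lower end of the large subunit with the fragment; the medians of both lists turned below 0 with quantile-normalized values.

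Of 57 translation initiation and elongation factor genes 18 rose (31.6%) and 20 fell (35.1%), against 26.6% and 23.9% of all genes (median -0.23). EIF1, which takes part in start codon choice, had normalized counts of 1669, 1679 and 1669 in Input and 11560, 14168 and 9500 in Pulldown (log2 fold change 2.79, SE 0.21, adjusted p = 3.1e-05). EIF2S2, a subunit of the factor that brings the initiator tRNA, rose from 3724 ± 539.9 to 19903 ± 1468 (2.42), and EIF4G1, the scaffold of the cap-binding complex, from 3248 ± 149 to 15669 ± 1526 (2.27). EEF1A1, the elongation factor that delivers aminoacyl-tRNA, had 121498, 118401 and 84544 in Input and 37274, 31389 and 26682 in Pulldown (log2 fold change -1.76, SE 0.26, adjusted p = 4.6e-04). Its Pulldown values all lay below its Input values, and those of the tag alone were 156651, 148649 and 144221 in Input and 125753, 129942 and 134623 in Pulldown. EIF4EBP2, a repressor of cap-dependent initiation, had -2.33, and EIF6 had -2.03.

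Transcripts of transcriptional regulators were among the most enriched. ID2, an inhibitor of helix-loop-helix factors, had normalized counts of 1530, 1338 and 1975 in Input and 21330, 21868 and 15327 in Pulldown (log2 fold change 3.60, SE 0.24, adjusted p = 2.5e-05). The groups did not overlap, and the tag alone gave 1776, 1651 and 1766 in Control Input and 1661, 1553 and 1594 in Control Pulldown. BHLHE40, a repressor of the circadian system, had 429, 575 and 141 in Input and 3773, 7250 and 2073 in Pulldown (3.55) and HES1, a Notch target, 375, 396 and 386 in Input and 2588, 3350 and 1581 in Pulldown (2.63). Of 27 helix-loop-helix and HES genes 16 rose (59.3%) and 2 fell (7.41%), against 26.6% and 23.9% of all genes. Their medians were 1.03, 1.20 and 0.70 in extracts 1, 2 and 3 and -0.06 with the tag alone. The 2 that fell were HES4, with 1614, 1425 and 1112 in Input and 236, 248 and 313 in Pulldown (log2 fold change -2.37, SE 0.22, adjusted p = 5.3e-05), and TCF12 (-0.91). Of 60 SOX, FOX, GATA and KLF genes tested, from 92 in the tables, 39 rose and 1 fell (median 1.06; 0.19, -0.02 and -0.15 in the replicates of the tag alone). GATA2, a regulator of blood and endothelial development, had 231, 223 and 514 in Input and 2952, 3425 and 3654 in Pulldown (log2 fold change 3.48, SE 0.31, adjusted p = 4.4e-05), and FOXD1 had a log2 fold change of 2.33. The gene that fell was SOX13 (-0.74, adjusted p = 0.036), and that call was lost without any single one of Input replicates 1 and 2 or Pulldown replicates 1 and 2 (adjusted p = 0.064 to 0.14).

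Of 35 HOX genes, which pattern the body axis, 21 rose and 5 fell (median 1.14; extracts 0.92, 1.32 and 0.91). HOXC6 had normalized counts of 144, 126 and 129 in Input and 1042, 1337 and 1136 in Pulldown (log2 fold change 3.12, SE 0.20, adjusted p = 2.5e-05), with no overlap between groups. HOXC8 and HOXA7 had log2 fold changes of 2.41 and 1.91. HOXA2 (-1.14) and HOXD4 (-0.82) fell. HOXB9 (-0.80), HOXB13 (-0.64) and HOXD13 (-0.55) also fell, and each of those 3 calls was lost when single libraries were left out, with adjusted p up to 0.15 for HOXB9, 0.12 for HOXB13 and 0.14 for HOXD13. The numbered zinc finger genes, a large family of DNA-binding repressors, divided close to the background, with 114 of 442 higher and 81 lower. ZNF706 had 244, 247 and 148 in Input and 2253, 3129 and 1473 in Pulldown (3.39) and ZNF77 216, 230 and 297 in Input and 1763, 2099 and 1584 in Pulldown (2.87), while ZNF589 had 797, 1036 and 721 in Input and 160, 153 and 185 in Pulldown (-2.34). Their median of 0.07 turned to -0.46 with ribosomal centring and to -0.02 without Pulldown replicate 3. Of 62 ZSCAN, ZKSCAN and ZBTB genes 17 rose, among them ZSCAN5A (2.91) and ZBTB18 (2.28), and 15 fell, among them ZSCAN16 (-1.81) and ZSCAN26 (-1.24). These shares, 27.4% and 24.2%, were close to those of all genes, 26.6% and 23.9%.

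Immediate early genes, which are switched on within minutes of a growth or stress signal and make short-lived mRNAs, rose in 29 of 41 cases and fell in 0. Over all genes tested 26.6% rose and 23.9% fell. MYC had normalized counts of 1153, 1270 and 426 in Input and 7273, 11393 and 3025 in Pulldown (log2 fold change 2.88, SE 0.51, adjusted p = 0.0011). Extract 3 was lowest in both fractions, its Pulldown value exceeded every Input value, and the ratios were 6.31, 8.97 and 7.1. JUN, a subunit of AP-1, had 2002, 2079 and 2562 in Input and 10910, 16148 and 17697 in Pulldown (log2 fold change 2.73, SE 0.24, adjusted p = 4.3e-05), and JUNB rose from 144 ± 32.1 to 568 ± 111 (1.97). The list's median was 0.94, 1.15 and 0.87 in extracts 1, 2 and 3 and 0.22, -0.01 and -0.14 in the 3 replicates of the tag alone. The difference of enrichments was higher for 22 and lower for 0 of these genes, against 23.5% and 20.8% of all genes. SMAD7, an inhibitor of TGF-beta signalling, was also among the most enriched, with 142, 142 and 204 in Input and 1598, 1789 and 1694 in Pulldown (log2 fold change 3.39, SE 0.22, adjusted p = 2.5e-05).

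Among genes of the pathway that TNIP2 is known to restrain, the transcripts of 2 inhibitors rose most. NFKBIA, which encodes the inhibitor I-kappa-B-alpha, had normalized counts of 232, 252 and 235 in Input and 1912, 2346 and 1216 in Pulldown (log2 fold change 2.87, SE 0.26, adjusted p = 4.3e-05). Its Pulldown values all lay above its Input values, and the tag alone gave 260, 273 and 212 in Control Input and 246, 155 and 200 in Control Pulldown. TNFAIP3, which encodes A20, had 45, 62 and 57 in Input and 227, 257 and 202 in Pulldown (log2 fold change 2.05, SE 0.24, adjusted p = 1.3e-04). MAP3K8, which encodes TPL-2, had 58, 60 and 41 in Input and 171, 188 and 180 in Pulldown (log2 fold change 1.76, SE 0.25, adjusted p = 3.2e-04), and NFKB1, outside the naming rule and chosen as the gene of p105, had 397, 407 and 397 in Input and 1343, 1382 and 1086 in Pulldown (log2 fold change 1.66, SE 0.20, adjusted p = 1.3e-04). In both genes the groups did not overlap. Of 43 pathway component genes 11 rose and 6 fell, a share of rises near the 26.6% of all genes, and the median of 0.25 turned to -0.28 with ribosomal centring. Among those that fell, OPTN, an autophagy receptor for ubiquitin, had -0.83, and IKBKG, the NEMO subunit of the IKK complex, -0.81. TBKBP1, an adaptor of the kinase TBK1, had -0.80. The calls of IKBKG and TBKBP1 were lost without single libraries, with adjusted p of 0.053 to 0.068 for IKBKG and 0.051 to 0.058 for TBKBP1. Of 17 NF-kB target genes 6 rose, including NFKBIA and TNFAIP3, which are on both lists, and IER3 (1.62). BCL2L1, which encodes the survival protein Bcl-xL, was the 1 target that fell (-0.91). The calls of BCL2L1 and OPTN were lost without both libraries of extract 1 (limma adjusted p = 0.14 and 0.16). They were also lost without those of extract 2 (adjusted p = 0.090 and 0.091).

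**Figure D3:**
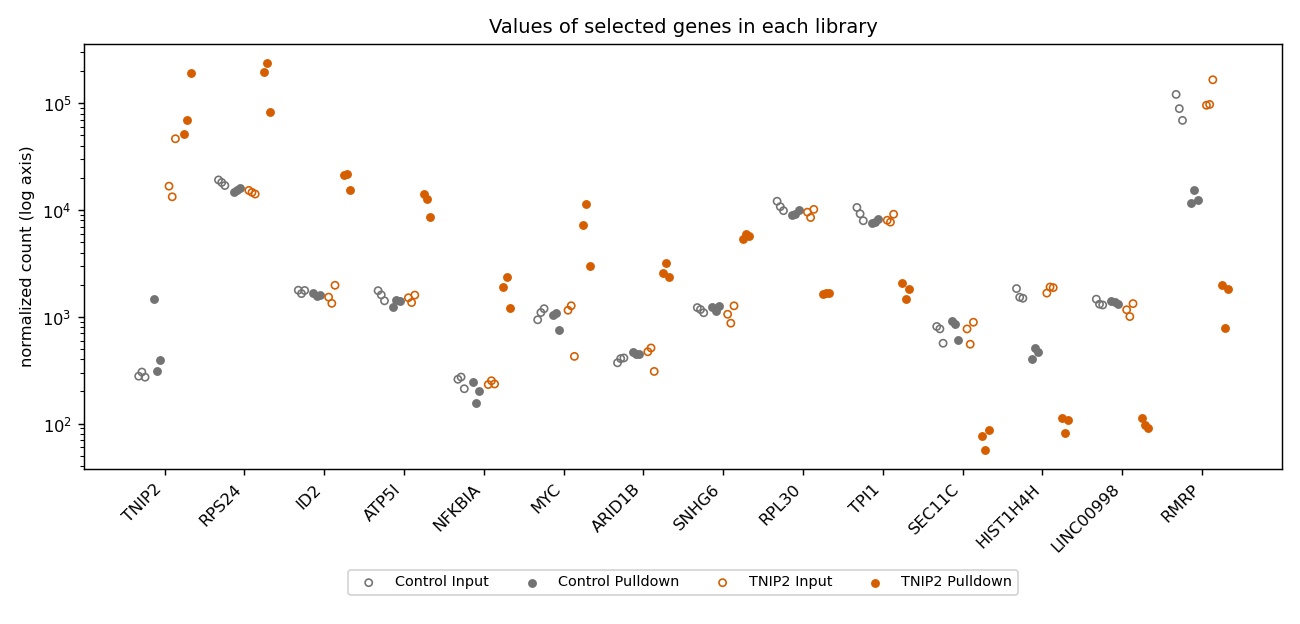
Each point is the normalized count of 1 library on a log axis, for 14 genes of the text, in Control Input and Control Pulldown (grey, open and filled) and in TNIP2 Input and TNIP2 Pulldown (orange, open and filled). For ID2, NFKBIA and RPS24 the filled orange points stand above the other 9 libraries, and for SEC11C, LINC00998, RPL30 and RMRP they stand below them.

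Genes of large chromatin regulators rose in 37 of 43 cases (86.0%) and fell in 0, against 26.6% and 23.9% of all genes. Their medians were 1.35, 1.37 and 1.68 in extracts 1, 2 and 3 and 0.21, 0.15 and -0.06 with the tag alone. ARID1B, a subunit of the SWI/SNF remodelling complex, had normalized counts of 471, 511 and 308 in Input and 2595, 3185 and 2377 in Pulldown (log2 fold change 2.68, SE 0.24, adjusted p = 4.6e-05). ARID4B, a subunit of a histone deacetylase complex, had 1274, 1350 and 1546 in Input and 7334, 9696 and 6514 in Pulldown (2.48), and ANKRD11, a cofactor of such complexes, 1083, 1120 and 466 in Input and 3888, 5931 and 3918 in Pulldown (2.44). In all 3 genes the groups did not overlap. The difference of enrichments was higher for 36 of the 43 genes, against 23.5% of all genes. These are long transcripts, with a median exonic length of 8880 bases, and relative to the median of genes in the same length decile the list's median was 0.88 rather than 1.46; the part of length in the result was not tested further. Their summed share of reads was 0.385% ± 0.0598 in Input and 0.836% ± 0.0645 in Pulldown (SD, n = 3).

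Cell cycle genes were read in a mitosis list and a DNA replication list. Of 40 mitosis genes 22 rose and 3 fell (median 0.89; -0.10 with the tag alone). That median was 0.47 with quantile-normalized values and 0.36 with ribosomal centring. CCNB1, the cyclin of mitotic entry, had normalized counts of 2037, 1793 and 2623 in Input and 12751, 12617 and 14143 in Pulldown (log2 fold change 2.63, SE 0.22, adjusted p = 3.9e-05), KIF20A, a kinesin of cytokinesis, had a log2 fold change of 2.47, and UBE2C, the ubiquitin carrier of the anaphase-promoting complex, of 2.13. CCNA2, which acts from S phase to mitosis, had 1915, 1795 and 2483 in Input and 925, 772 and 928 in Pulldown (log2 fold change -1.23, SE 0.21, adjusted p = 9.5e-04). The other 2 that fell were CENPA (-0.71) and UBE2S (-0.74), and both calls were lost when single libraries were left out, with adjusted p up to 0.12 for CENPA and 0.13 for UBE2S. Of 44 DNA replication genes 13 rose (29.5%) and 10 fell (22.7%), shares near the 26.6% and 23.9% of all genes. PCNA, the sliding clamp, had 4529, 4199 and 5594 in Input and 32145, 27664 and 25865 in Pulldown (log2 fold change 2.59, SE 0.22, adjusted p = 4.0e-05) and MCM2, a helicase subunit, 3980, 3414 and 6859 in Input and 22587, 23209 and 34183 in Pulldown (2.53). POLD2, a subunit of polymerase delta that works on the same clamp, had 1757, 1886 and 1633 in Input and 648, 588 and 628 in Pulldown (log2 fold change -1.5, SE 0.19, adjusted p = 1.7e-04), and ORC4 had -1.17.

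Genes of RNA-binding proteins changed in both directions. Of 34 hnRNP and SR genes 13 rose (38.2%) and 6 fell (17.6%), against 26.6% and 23.9% of all genes. Their median of 0.20 was -0.22 with quantile-normalized values and -0.33 with ribosomal centring. SRSF2 had normalized counts of 5207, 5103 and 7162 in Input and 28155, 41224 and 24078 in Pulldown (log2 fold change 2.40, SE 0.27, adjusted p = 9.5e-05), and HNRNPDL had 5252, 5906 and 4295 in Input and 25194, 49797 and 16515 in Pulldown (2.43). SRSF9 fell from 2567 ± 112 to 752 ± 74 (-1.77), TRA2A from 778 ± 63 to 241 ± 36.8 (-1.69) and HNRNPH1 from 8007 ± 580.0 to 3199.7 ± 930.4 (-1.36). Of 58 genes of AU-rich element binding and RNA decay proteins 26 rose (44.8%) and 13 fell (22.4%). Their median of 0.42 was -0.11 with ribosomal centring. The LSM genes, which form rings on the ends of RNA, split: LSM3 had 1216, 1207 and 1743 in Input and 6764, 6752 and 5122 in Pulldown (2.17), while LSM1 had 477, 464 and 855 in Input and 137, 111 and 174 in Pulldown (-2.05) and LSM2 had -1.91. PUM2, a repressor that binds 3′ untranslated regions, rose from 961 ± 278 to 4837 ± 2127 (2.26). Stress granule protein genes rose in 13 of 25 cases, with YTHDF1, a reader of methylated adenosine, at 2.00 and PRRC2A at 1.76, and the 1 that fell was LARP4 (-1.31). Their median of 0.72 was 0.24 with quantile-normalized values and 0.19 with ribosomal centring.

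**Figure D4:**
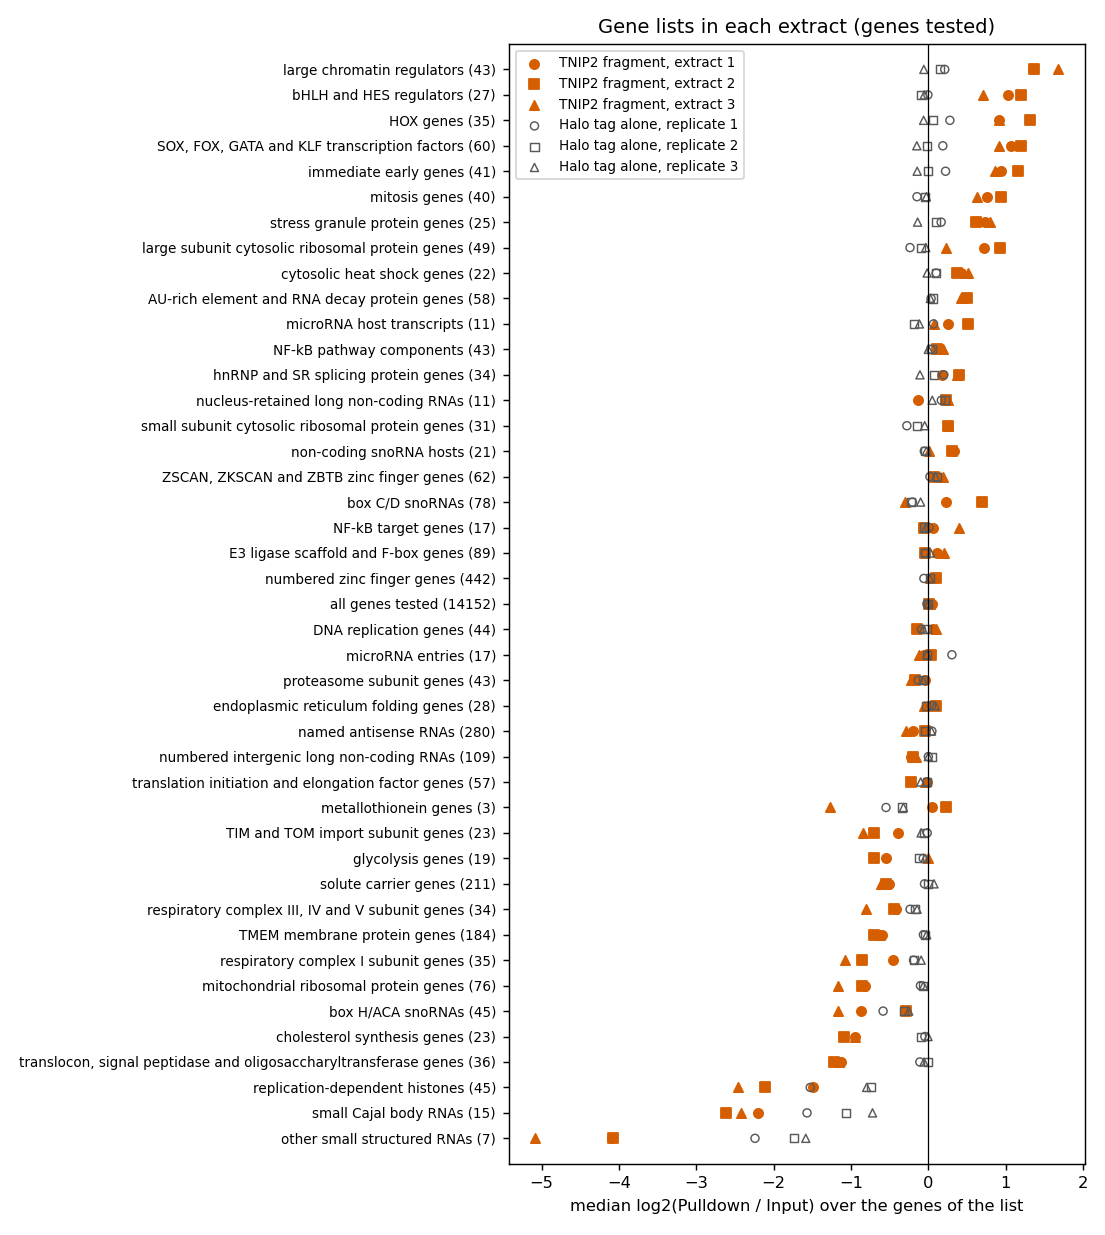
Each row is 1 gene list, with the number of genes tested; points are the median log2 ratio of Pulldown to Input over its genes in extracts 1, 2 and 3 with the TNIP2 fragment (orange) and in replicates 1, 2 and 3 with the tag alone (open grey). Large chromatin regulators lie highest, at 1.35 to 1.68, and small structured RNAs lowest; with quantile-normalized values the medians of hnRNP and of both ribosomal protein lists were below 0, and with ribosomal centring those of several lists near 0 also turned.

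Nuclear genes of mitochondrial proteins were lower in Pulldown more often than higher. Of 76 mitochondrial ribosomal protein genes 15 rose (19.7%) and 39 fell (51.3%), against 26.6% and 23.9% of all genes. Their medians were -0.81, -0.86 and -1.16 in extracts 1, 2 and 3 and -0.10, -0.06 and -0.06 with the tag alone. MRPL15 had normalized counts of 686, 601 and 677 in Input and 120, 102 and 161 in Pulldown (log2 fold change -2.37, SE 0.23, adjusted p = 6.0e-05), and MRPS17 and MRPL54 had log2 fold changes of -2.43 and -2.36. Within the same family MRPL34 had 415, 386 and 313 in Input and 4100, 5216 and 3401 in Pulldown (log2 fold change 3.50, SE 0.23, adjusted p = 2.5e-05). MRPS28 had 296, 246 and 315 in Input and 2741, 2610 and 2118 in Pulldown (3.12), and MRPL44 rose from 479 ± 69 to 2288 ± 601 (2.23). For all 6 genes the groups did not overlap.

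Of 35 genes of respiratory complex I 5 rose (14.3%) and 21 fell (60%), against 26.6% and 23.9% of all genes. Their median was -0.81, with -0.45, -0.85 and -1.08 in extracts 1, 2 and 3. NDUFS7, a subunit that holds an iron-sulphur cluster, had normalized counts of 741, 661 and 689 in Input and 119, 80 and 152 in Pulldown (log2 fold change -2.61, SE 0.26, adjusted p = 6.3e-05), and NDUFB11 and NDUFS3 had -2.37 and -2.12. NDUFB6, an accessory subunit, had 903, 760 and 1107 in Input and 5623, 3316 and 3895 in Pulldown (log2 fold change 2.19, SE 0.25, adjusted p = 1.1e-04), NDUFB4 had 1.72 and NDUFA3 had 1.42. The other 2 of the 5 that rose were NDUFS4 (0.92) and NDUFB8 (0.57). Of 34 genes of complexes III, IV and V 8 rose (23.5%) and 17 fell (50%). ATP synthase itself split: ATP5I had 1510, 1361 and 1599 in Input and 14031, 12577 and 8675 in Pulldown (log2 fold change 2.95, SE 0.23, adjusted p = 3.3e-05) and ATP5G1 1040, 889 and 1084 in Input and 207, 127 and 176 in Pulldown (log2 fold change -2.58, SE 0.24, adjusted p = 4.6e-05). COX5A had -2.62 and UQCR11 -2.65, whereas COX7B had 1.38. Of 23 genes of the TIM and TOM import machinery 10 fell, led by TIMM17B with 1153, 1009 and 1127 in Input and 150, 96 and 118 in Pulldown (log2 fold change -3.19, SE 0.23, adjusted p = 2.8e-05), and 3 rose: TOMM7 (1.15), TIMM23B (1.05) and TOMM70A (0.66). The call of TOMM70A was lost without Input replicate 1, Input replicate 2 or Pulldown replicate 1 (adjusted p = 0.091, 0.090 and 0.073), and with quantile-normalized values (0.07, adjusted p = 0.78); TIMM23B and TOMM70A also lost theirs with ribosomal centring.

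Transcripts of the machinery that brings proteins into the endoplasmic reticulum were lower in most cases. Of 36 genes of the translocon, signal peptidase, signal recognition particle and oligosaccharyltransferase 23 fell (63.9%) and 6 rose (16.7%). Of all genes 23.9% fell and 26.6% rose. The list's medians were -1.13, -1.22 and -1.15 in extracts 1, 2 and 3 and -0.11, 0.00 and -0.06 with the tag alone. SEC11C, a catalytic subunit of signal peptidase, had normalized counts of 770, 554 and 890 in Input and 77, 57 and 88 in Pulldown (log2 fold change -3.30, SE 0.26, adjusted p = 3.4e-05). SRP9, which sits in the arm of the signal recognition particle that slows translation, had 9570, 8832 and 10345 in Input and 1818, 1915 and 1750 in Pulldown (log2 fold change -2.39, SE 0.19, adjusted p = 3.5e-05), and SRPRB, a subunit of its receptor, 1845, 1538 and 1997 in Input and 316, 180 and 303 in Pulldown (-2.78). In these 3 genes no Pulldown library reached the lowest Input library. OSTC, an oligosaccharyltransferase subunit, rose from 1943 ± 111 to 9137 ± 2801 (2.19) and KRTCAP2, another, from 1005 ± 114 to 2831 ± 622 (1.47), while SRP72 rose by 0.87, a call lost without Pulldown replicate 1 (adjusted p = 0.056), with quantile-normalized values (0.46, adjusted p = 0.19) and with ribosomal centring (0.34, adjusted p = 0.32). The list's share of reads was 0.743% ± 0.0531 in Input and 0.359% ± 0.0518 in Pulldown, and with the tag alone 0.779% ± 0.0577 and 0.774% ± 0.0341.

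Membrane protein genes outside that machinery fell more often than they rose. Of 184 TMEM genes tested 81 fell (44.0%) and 21 rose (11.4%), with a median of -0.61. Of 211 solute carrier genes 91 fell (43.1%) and 17 rose (8.06%), with a median of -0.55 (extracts -0.51, -0.55 and -0.61). Among all genes 23.9% fell and 26.6% rose. In these 2 lists 82 TMEM and 103 solute carrier genes were not called. TMEM256 had normalized counts of 700, 593 and 541 in Input and 90, 53 and 54 in Pulldown (log2 fold change -3.24, SE 0.26, adjusted p = 3.7e-05), and TMEM147, which works with the translocon, had 1351, 1108 and 1615 in Input and 166, 120 and 188 in Pulldown (-3.10). SLC30A9, a zinc transporter, had 2793, 2707 and 2716 in Input and 464, 445 and 400 in Pulldown (log2 fold change -2.65, SE 0.19, adjusted p = 2.8e-05). SLC38A2, an amino acid transporter, went the opposite way, with 4044, 3602 and 2214 in Input and 36545, 32389 and 12402 in Pulldown (log2 fold change 2.94, SE 0.40, adjusted p = 2.7e-04), and TMEM108 and SLC17A5 rose by 2.61 and 2.30. Cholesterol synthesis genes, whose enzymes mostly sit in the endoplasmic reticulum membrane, fell in 15 of 23 cases and rose in 2, with medians of -0.95, -1.09 and -0.94 in extracts 1, 2 and 3 and -0.07 with the tag alone. CYP51A1 had 3611, 2915 and 3333 in Input and 843, 481 and 567 in Pulldown (log2 fold change -2.42, SE 0.24, adjusted p = 6.6e-05) and TM7SF2, a sterol reductase, -2.15.

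Endoplasmic reticulum folding genes did not follow the translocon as a group, with 5 of 28 higher and 6 lower. These shares were 17.9% and 21.4%, against 26.6% and 23.9% of all genes. HSP90B1, the chaperone GRP94, had normalized counts of 8044, 6387 and 4818 in Input and 63781, 58923 and 41195 in Pulldown (log2 fold change 3.10, SE 0.27, adjusted p = 4.3e-05), with Pulldown above Input in every library. PPIB, a proline isomerase, rose from 2879.7 ± 321 to 12648 ± 2475 (2.12), and TXNDC12 from 803 ± 93.4 to 3102 ± 996 (1.91). The other 2 that rose were P4HB (1.21) and ERO1LB (0.96). SELM, a selenoprotein, had 451, 361 and 488 in Input and 38, 26 and 47 in Pulldown (log2 fold change -3.54, SE 0.27, adjusted p = 3.2e-05), FKBP2 had -2.95 and SEP15, another selenoprotein, -1.92. Of 22 cytosolic heat shock genes 9 rose and 3 fell, with a median of 0.42 that was -0.11 with ribosomal centring. HSP90AB1 had 6941, 6512 and 4128 in Input and 29060, 31253 and 29256 in Pulldown (log2 fold change 2.38, SE 0.25, adjusted p = 7.7e-05), and HSPA1B, which is nearly identical to HSPA1A and so uncertain, had 2.71. HSF1, the transcription factor of the heat shock response, fell from 823 ± 9.64 to 353 ± 89.9 (-1.25), DNAJA2 had -1.63 and HSPA4L -1.05. MT2A, a metal-binding metallothionein, had 126, 89 and 134 in Input and 1698, 1865 and 1077 in Pulldown (log2 fold change 3.70, SE 0.27, adjusted p = 2.8e-05), while the other 2 metallothionein genes tested, MT1X and MT1F, were not called and had -0.33 and -1.08.

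Proteasome and ubiquitin ligase genes included members that rose and members that fell. Of 43 proteasome genes 9 rose (20.9%) and 15 fell (34.9%), and the shares of the 89 E3 scaffold and F-box genes were 31.5% and 18.0%, against 26.6% and 23.9% of all genes. PSMA7, a subunit of the outer ring of the core particle, had normalized counts of 2508, 2131 and 3292 in Input and 22124, 22548 and 19480 in Pulldown (log2 fold change 3.04, SE 0.23, adjusted p = 3.0e-05), while PSMB2 and PSMB5, of the inner ring, fell from 1031 ± 56.5 to 250.3 ± 72.1 (-2.07) and from 1418 ± 108 to 338 ± 66.5 (-2.08). Of the E3 scaffold and F-box genes 28 rose, among them FBXO5, an inhibitor of the anaphase-promoting complex (2.95), and CUL1, the scaffold of SCF ligases (2.77), and 16 fell, among them FBXO44 (-1.65). Glycolysis genes fell in 8 of 19 cases and rose in 0. TPI1, triosephosphate isomerase, had 8033, 7709 and 9145 in Input and 2080, 1473 and 1815 in Pulldown (log2 fold change -2.22, SE 0.21, adjusted p = 5.4e-05). LDHA had -1.10 and ALDOA -1.08, and the call of ALDOA was lost without Pulldown replicate 1 or 2 (adjusted p = 0.059 and 0.063). The list's medians were -0.55, -0.71 and 0.00 in extracts 1, 2 and 3, so extract 3 did not share the shift of the others.

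Structured RNAs that lack a poly(A) tail were at the lowest end of the changes, and several were lower in Control Pulldown too. RMRP, the RNA of RNase MRP, had normalized counts of 95929, 97609 and 166201 in Input and 1974, 780 and 1835 in Pulldown (log2 fold change -6.36, SE 0.37, adjusted p = 2.5e-05). It had 121167, 89229 and 69188 in Control Input and 11713, 15365 and 12552 in Control Pulldown, and the difference of enrichments was -3.57 (SE 0.46, adjusted p = 3.4e-05). RPPH1, the RNA of RNase P, had 93096, 106006 and 184019 in Input and 2160, 1066 and 3765 in Pulldown (-5.89; -1.82 with the tag alone). TERC, the template RNA of telomerase, had 1396, 1338 and 931 in Input and 81, 78 and 83 in Pulldown (log2 fold change -3.88, SE 0.23, adjusted p = 2.5e-05), against -0.82 with the tag alone. RNVU1-19, a variant U1 RNA, had -5.61, but -4.17 with the tag alone. Its difference of enrichments was -1.43 (SE 0.85, adjusted p = 0.19) and was not called. The list of small structured RNAs outside the snoRNA and microRNA classes had 7 members tested, of 18 in the tables. All 7 fell, against 23.9% of all genes: RMRP, RPPH1, RNVU1-19, TERC, RNU12, RNU4ATAC and RNU11. PLCG2, a protein-coding gene for a phospholipase, had 109449, 131721 and 200679 in Input and 10516, 5073 and 4238 in Pulldown (-4.55), and -2.87 with the tag alone.

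Histone genes that are expressed in S phase, whose mRNAs end in a stem-loop, fell in 39 of 45 cases tested and rose in 0. Of all genes 23.9% fell and 26.6% rose. HIST1H4H had normalized counts of 1668, 1903 and 1878 in Input and 113, 82 and 107 in Pulldown (log2 fold change -4.17, SE 0.21, adjusted p = 2.5e-05), with 1840, 1526 and 1493 in Control Input and 407, 508 and 472 in Control Pulldown. HIST1H3B had 8322, 7658 and 7967 in Input and 906, 575 and 597 in Pulldown (-3.56; -1.20 with the tag alone). The list's median was -1.5, -2.11 and -2.46 in extracts 1, 2 and 3 and -1.53, -0.74 and -0.80 in the 3 replicates of the tag alone. The difference of enrichments was lower for 23 of the 45 genes and higher for 0, against 20.8% and 23.5% of all genes. With the tag alone 9 were lower, against 0.134% of all genes. Histone genes of 1 type are near-identical copies, so values of single genes are uncertain.

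Small nucleolar and Cajal body RNAs guide chemical changes of ribosomal and spliceosomal RNA. Many lie within introns of host genes, so reads of the host may be counted for them. Of 15 small Cajal body RNAs tested (of 24) 12 fell and 1 rose. Their median was -2.15, and -1.19 with the tag alone (-1.57, -1.07 and -0.72 in its replicates). The difference of enrichments was lower for 3 and higher for 2, against 20.8% and 23.5% of all genes. SCARNA2 had normalized counts of 1122, 797 and 1410 in Input and 79, 61 and 146 in Pulldown (log2 fold change -3.59, SE 0.34, adjusted p = 5.2e-05; -0.18 with the tag alone). SCARNA10 had -4.20, and -4.31 with the tag alone. SCARNA27 was the one that rose, with 4, 3 and 2 in Input and 21, 65 and 18 in Pulldown (2.95). It met the minimum of 10 only through Pulldown. Of 45 box H/ACA snoRNAs tested (of 106) 20 fell (44.4%) and 9 rose (20%), with a median of -0.91. It became 1.48 with a minimum of 100 in at least 3 of the 6 libraries. That minimum can be met by Pulldown alone, and only 1 member had an Input mean of 100 or more. The value of 1.48 therefore gives no direction for the list. SNORA71A had 56, 78 and 85 in Input and 5, 7 and 10 in Pulldown (-3.17) and SNORA4 23, 25 and 53 in Input and 117, 250 and 237 in Pulldown (2.57). Of 78 box C/D snoRNAs tested (of 264) 23 rose (29.5%) and 16 fell (20.5%), near the 26.6% and 23.9% of all genes. Medians were 0.23, 0.69 and -0.30 in extracts 1, 2 and 3, so the extracts did not share a direction. The list's median log2 fold change was 0.11, and 1.98 when genes under a minimum of 100 were left out. The same limit holds there, since 3 members had an Input mean of 100 or more. SNORD29 and SNORD30, which both lie in introns of SNHG1, had 45, 65 and 71 in Input and 403, 879 and 250 in Pulldown (2.89) and 13, 25 and 24 in Input and 152, 346 and 93 in Pulldown (3.03). SNORD97 had -3.98, but -3.43 with the tag alone, and SNORD4A had -3.15.

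Of 17 entries with a microRNA symbol tested, a pattern that also took in host transcripts, 2 rose and 5 fell. These shares were 11.8% and 29.4%, against 26.6% and 23.9% of all genes. MIR17HG, the host of the miR-17 to miR-92 cluster, had normalized counts of 2422, 1918 and 2146 in Input and 17017, 18098 and 6728 in Pulldown (log2 fold change 2.57, SE 0.35, adjusted p = 2.8e-04), and MIR4458HG had 1.09. MIR3648 had 36, 22 and 39 in Input and 2, 3 and 2 in Pulldown (log2 fold change -3.30, SE 0.39, adjusted p = 1.4e-04), MIR663A 31, 20 and 27 in Input and 2, 1 and 4 in Pulldown (-3.10) and MIR3687 49, 16 and 25 in Input and 1, 2 and 4 in Pulldown (-3.17). MIR3648, MIR663A and MIR3687 met the minimum for testing only through Input, as no Pulldown value of theirs exceeded 4. A minimum met by Input alone favours a fall, so their calls and p-values carry that limit. In Control Pulldown, which the minimum did not use, MIR3648 had 83, 46 and 51, MIR663A had 37, 43 and 43 and MIR3687 had 92, 43 and 43. The mature sequences of the 2 entries matched in RefSeq (GRCh38.p14) are shown because these entries were lower with the fragment and had log2 fold changes of 1.21 and 0.84 with the tag alone. In these sequences capitals mark the seed, bases 2 to 8, and the seeds differ.
MIR663A: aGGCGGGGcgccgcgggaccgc
MIR3648: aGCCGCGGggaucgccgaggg
Total RNA libraries of this kind do not separate a mature microRNA from its precursor or from other RNA over the same bases. MIR31HG (-1.52) and MIR6723 (-2.02) were the other 2 that fell. Of 11 microRNA host transcripts 3 rose, MIR17HG, MIR4458HG and MIR7-3HG (1.6), and MIR31HG fell, with a median of 0.42 that was -0.11 with ribosomal centring.

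Long non-coding RNAs held strong changes of single genes with no common direction. LINC00657, known as NORAD, a cytoplasmic RNA that binds Pumilio proteins, had normalized counts of 7121, 7246 and 4500 in Input and 47700, 60439 and 20966 in Pulldown (log2 fold change 2.67, SE 0.38, adjusted p = 3.4e-04). LINC00998 had 1165, 1006 and 1330 in Input and 113, 97 and 91 in Pulldown (log2 fold change -3.52, SE 0.21, adjusted p = 2.5e-05), the groups did not overlap in either gene, and the tag alone gave log2 fold changes of 0.19 and 0.02. Of 109 numbered intergenic RNAs tested (of 615) 16 rose and 16 fell (14.7% each way), against 26.6% and 23.9% of all genes. LINC00493 rose from 577 ± 92.9 to 3383 ± 869 (2.53) and LINC01311 fell from 148 ± 32.7 to 14.3 ± 7.57 (-3.37). Of 21 non-coding snoRNA hosts 10 rose (47.6%) and 5 fell (23.8%). SNHG6 had 1057, 872 and 1268 in Input and 5319, 5978 and 5778 in Pulldown (log2 fold change 2.43, SE 0.21, adjusted p = 4.1e-05), SNHG1 had 1.83 and SNHG9 1.63, whereas SNHG20 had 363, 369 and 413 in Input and 56, 57 and 58 in Pulldown (log2 fold change -2.72, SE 0.21, adjusted p = 3.3e-05) and DANCR 798, 795 and 1274 in Input and 161, 141 and 165 in Pulldown (-2.58). The other 3 that fell were SNHG4 (-1.86), SNHG16 (-1.36) and SNHG3 (-1.04). LRRC75A-AS1 fell from 8213 ± 626 to 1356 ± 132 (-2.60).

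Of 11 long RNAs known to stay in the nucleus 1 rose, JPX (1.52), and 2 fell, HOTAIR (-1.60) and MIAT (-3.44). MALAT1 had normalized counts of 7249, 13314 and 2155 in Input and 4180, 21353 and 3471 in Pulldown and was not called (adjusted p = 0.85); its Input values spanned more than 6-fold and the groups overlapped. Of 280 named antisense RNAs 44 rose (15.7%) and 61 fell (21.8%), against 26.6% and 23.9% of all genes. Among them were SERTAD4-AS1 at 36, 22 and 29 in Input and 294, 473 and 266 in Pulldown (3.50) and RPARP-AS1 at -2.16. The strand setting of the counting is not given in the sources used here, so reads of an antisense gene and of its partner cannot be told apart.

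Longer transcripts were higher in Pulldown than shorter ones. Exonic length, recovered from the deposited tables, had a Spearman correlation of 0.218 with the log2 fold change across the 14152 genes, and of 0.205, 0.174 and 0.251 in extracts 1, 2 and 3. In the shortest decile of genes, with a median of 923 bases, the median log2 fold change was -0.31, 23.1% were higher and 36.5% lower. In the longest decile, with a median of 9083 bases, the median was 0.59, 43.1% were higher and 9.82% lower. The correlation within deciles of Input level was 0.136 to 0.306, and with the tag alone it was 0.199, where the medians of the shortest and longest deciles were -0.08 and 0.08. Genes are not independent replicates, and all correlations rest on the same libraries. Relative to genes of the same length decile, the median of immediate early genes was 1.09, of HOX genes 1.35 and of the translocon list -1.12, against 1.01, 1.14 and -1.05 before. Medians of some other lists became smaller in size. Mitochondrial ribosomal protein genes had -0.66 against -0.90 before, complex I genes -0.56 against -0.81 and TIM and TOM genes -0.27 against -0.50. Mitosis genes had 0.67 against 0.89 and NF-kB components -0.01 against 0.25. The part of length in the list results was not tested.

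**Figure D5:**
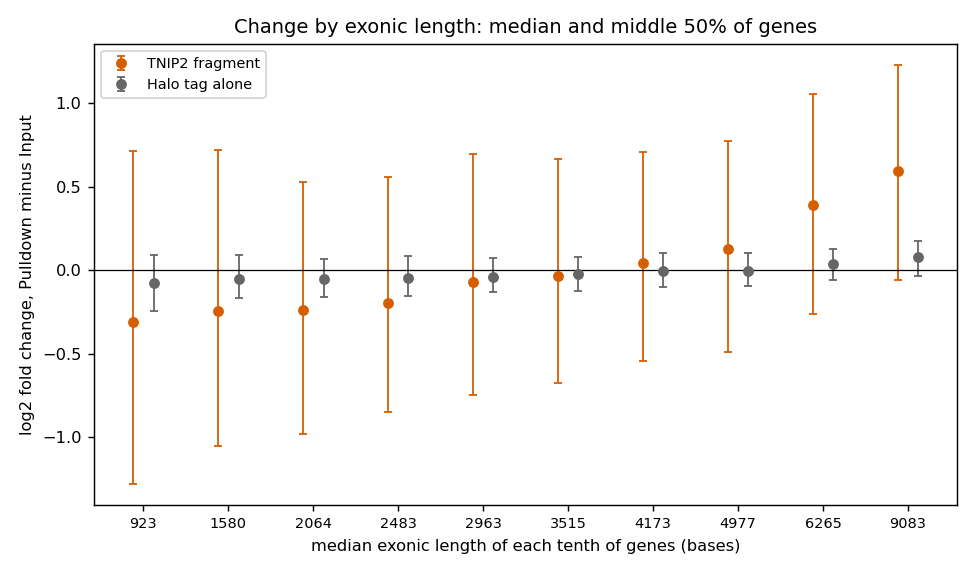
Points are the median log2 fold change of Pulldown over Input in each decile of genes ordered by exonic length, labelled with the decile's median length in bases, and bars span the middle 50% of genes, for the TNIP2 fragment (orange) and the tag alone (grey). The median moves from -0.31 in the shortest to 0.59 in the longest decile with the fragment, and from -0.08 to 0.08 with the tag alone.

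As a description of how far the pool shifted, genes called higher held 26.5% ± 0.541 of reads in TNIP2 Input and 58.5% ± 2.99 in TNIP2 Pulldown (SD, n = 3), and genes called lower 32% ± 1.08 and 8.97% ± 1.18. These genes were chosen by the same contrast, so the shares are no further evidence of it. In the tag-alone libraries, which the choice did not use, the same genes held 26.4% ± 0.347 in Input and 27.1% ± 0.0606 in Pulldown, and 31.9% ± 0.774 and 29.6% ± 0.103. RMRP alone went from 1.14% ± 0.353 to 0.0111% ± 0.00513 of reads, and TNIP2, with any plasmid reads, from 0.241% ± 0.167 to 0.782% ± 0.648.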

How the data were processed

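RNA of whole cell extract and of Halo-purified material was sequenced in 12 libraries, 3 in each of 4 groups taken from the sample titles. Per the submitters' processing notes, TopHat2 2.0.14, DESeq2 1.6.3 and hg19 were used. Which counter, strand setting and annotation were used is not given in the sources used here. Tables deposited by the authors give normalized counts as whole numbers, treated here as a score, and FPKM values. The column letter F was read as the TNIP2 fragment, since the other letter stands for Control. Exonic length was recovered from the ratio of normalized count to FPKM, and was fixed to a whole number for 1537 genes. Library depth was recovered from the steps between low FPKM values scaled by that length, with low values whole within 0.1 of a read. Intervals of counting error are not given, because recovered depth is derived.

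Genes with a normalized count of at least 10 in at least 3 of the 6 TNIP2 libraries were kept. Log2(normalized count + 1) was fitted with limma 3.58.1 in R 4.3.3 (lmFit, eBayes with trend, two-sided), and p-values were adjusted by Benjamini-Hochberg over all 14152 genes, with calls at an adjusted p under 0.05. Fold changes are on that scale and understate changes of low genes. Pulldown against Input used 6 libraries. The difference of enrichments and the tag-alone comparison came from 1 fit of all 12. These main fits did not pair libraries of an extract. In the TNIP2 libraries the design states that Input is an aliquot of the extract used for Pulldown, and same-numbered libraries deviated together (r = 0.39, 0.46 and 0.50); with the tag alone these were 0.07, 0.08 and 0.07. Members and gene lists were chosen with earlier results of these data known. Named genes are TNIP2, the 10 most abundant called genes at least 4-fold changed in each direction, the 14 largest changes in each direction, and up to 3 members of each list in each direction, above a mean of 100 in the higher group except in lists of small RNAs, with all members where 5 or fewer were called. Alternatives changed the pseudocount, the filter, the table, the scaling, the samples in the fit, the block and the test, and left out libraries. Other named genes were chosen after their values were seen. The fit was tested on simulated data. Some genes that the naming rule picks are not reported here.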

Additional observations from a re-analysis of the deposited data

Results flagged for a closer look

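The change from Input to Pulldown differed between the TNIP2 fragment and the tag alone for 3322 genes that were more enriched with the fragment and 2945 that were less enriched, by the difference of enrichments in limma with Benjamini-Hochberg adjustment. For some named genes every extract moved one way with the fragment and every replicate the opposite way with the tag alone. The difference of enrichments on the log2 scale was 2.95 for LINC00493, 3.45 for MRPS28, 2.69 for NDUFB6 and 1.49 for TOMM7. It was -2.49 for RPL29, -3.22 for TMEM160, -4.13 for MIR3648, -4.60 for MIR3687 and -4.31 for MIR663A. MIR3648, MIR3687 and MIR663A met the minimum for testing only through TNIP2 Input, which favours a lower value for them. The tag-alone changes of all these named genes were not called in their own comparison.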

How the results depend on the processing

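The fit with the replicate number as a block called 4714 genes higher and 4281 lower in the TNIP2 libraries, against 3763 and 3387 without it, and no named gene lost its call under the pairing. With ribosomal centring 1858 genes were higher and 5264 lower (1279 and 4362 at least 2-fold), and 1431 and 5272 for the difference of enrichments (1038 and 4514). It moved the median of all genes by -0.53 and by -0.64 in these comparisons. Leaving out both libraries of an extract gave 2051 to 4889 higher and 1747 to 4414 lower genes. With the tag alone the number higher, 0 in the main comparison, was 1 with a pseudocount of 10, with quantile normalization and with voom, and 2 with the block; leaving out libraries gave 0 to 2 higher and 8 to 39 lower. With a minimum of 100, box H/ACA snoRNAs and antisense RNAs had medians of 1.48 and 0.0899. That minimum changes which members are counted and can be met by Pulldown alone, so medians under it do not show a turn. Members with an Input mean of 100 or more were 1 of 45 box H/ACA snoRNAs and 73 of 280 antisense RNAs. They were 3 of 17 microRNA entries and 2 of 3 metallothioneins. By more than the spread between extracts, median changes of lists turned with quantile-normalized values for hnRNP and SR genes (-0.22) and large and small subunit ribosomal proteins (-0.14 and -0.68). By the same measure they turned with ribosomal centring for microRNA hosts (-0.11), NF-kB components (-0.28), numbered zinc fingers (-0.46) and ZSCAN, ZKSCAN and ZBTB genes (-0.40). So did those of hnRNP and SR genes (-0.33), heat shock genes (-0.11), RNA decay genes (-0.11) and small subunit proteins (-0.35, where the centring itself sets these genes near 0). Leaving out libraries moved the antisense median between -0.2659 and 0.0026 and the numbered zinc finger median between -0.0204 and 0.1898, with both turns without Pulldown replicate 3. Medians near 0 also changed sign: nucleus-retained RNAs (0.19) had -0.32 with quantile-normalized values, -0.34 with ribosomal centring and -0.38 to -0.05 in 5 settings that leave out libraries; box C/D snoRNAs (0.11) had -0.42, snoRNA hosts (0.15) -0.38, NF-kB targets (0.08) -0.45 and E3 scaffold and F-box genes (0.07) -0.45 with ribosomal centring; and microRNA entries (-0.03) had 0.83 and metallothioneins (-0.33) 1.69 with a minimum of 100. Those of box C/D snoRNAs, microRNA entries, NF-kB targets, DNA replication, endoplasmic reticulum folding, proteasome, E3 scaffold and F-box and metallothionein genes also changed sign when some libraries were left out, and those of microRNA entries (0.09) and NF-kB targets (-0.04) with quantile-normalized values. The cause was not tested. Of gene results in single settings 4202 stayed on their side of the threshold and 107 lost the call, with none reversed; the lost calls fell on 24 of 228 named genes, of which 23 lost it without both libraries of extract 1 and 20 without those of extract 2. OPTN, BCL2L1, TCF12 and LDHA lost their calls only without both libraries of extract 1 or of extract 2. HOTAIR and HSPA4L lost theirs only without those of extract 1. The alternative that uses protein length was not run. Control Pulldown was the shallowest group, which limits low genes there.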

Other observations

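Some of the largest changes lay outside the gene lists. CMTM8, a membrane protein linked to receptor signalling, had normalized counts of 140, 114 and 128 in Input and 1989, 2497 and 974 in Pulldown (log2 fold change 3.73, SE 0.32, adjusted p = 4.1e-05, limma with Benjamini-Hochberg adjustment). PLEKHA5 had 439, 432 and 342 in Input and 5301, 7509 and 2880 in Pulldown (3.59), and TSHZ1, a zinc finger regulator of development, had 404, 444 and 147 in Input and 3758, 5424 and 2289 in Pulldown (3.59). FAM135A rose from 641 ± 36 to 7880 ± 2920.2 (3.55; SD, n = 3). In all 4 genes the groups did not overlap, and the tag alone gave log2 fold changes of -0.03, 0.05, 0.10 and -0.00. In the other direction HRSP12, which encodes a deaminase of reactive imines, had 450, 379 and 508 in Input and 35, 23 and 36 in Pulldown (log2 fold change -3.80, SE 0.26, adjusted p = 2.7e-05), with 0.11 for the tag alone.

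Further named genes of the lists changed in both directions. MCM10, a replication initiation factor, had normalized counts of 1742, 1623 and 2872 in Input and 8440, 8781 and 12030 in Pulldown (log2 fold change 2.26, SE 0.27, adjusted p = 1.3e-04). PSMC6, an ATPase of the proteasome cap, had 1037, 960 and 1723 in Input and 5966, 7108 and 5941 in Pulldown (2.40), while PSMB10, an immunoproteasome subunit, had 179, 158 and 340 in Input and 27, 26 and 47 in Pulldown (-2.69). STIP1, which links HSP70 to HSP90, rose from 2502 ± 547 to 8170.3 ± 2469 (1.69). HNRNPD, which binds AU-rich elements, had 483, 549 and 511 in Input and 1735, 5694 and 1660 in Pulldown (log2 fold change 2.30, SE 0.41, adjusted p = 0.0012), with Pulldown replicate 2 the highest library. KLHL2, an adaptor of CUL3 ligases, had 284, 277 and 266 in Input and 2334, 2990 and 1071 in Pulldown (2.82).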
